A study of Homo sapiens with 6 samples.

Results

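The genes described here copy DNA and make its building blocks. They are 51 genes, named one by one and taken by gene symbol from a table of 58825 genes measured in PANC-1 cells with and without maslinic acid (MA), a triterpenoid of olives. PANC-1 cells are an established human line from a carcinoma of the pancreas. By RNA-seq 6 samples were measured, all of them PANC-1 cells grown in Dulbecco's medium with fetal bovine serum, penicillin and streptomycin. In 3 samples (MA PANC-1 1 to 3) the cells received 40 μM MA for 24 h, and in 3 (PANC-1 1 to 3) they received none, at 0 μM. The study's methods give DMSO as the treatment its cells received in place of MA and call the 3 samples of a group biological replicates, without saying how the cultures were kept apart. A single cell line limits what the groups can stand for.

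A human cell copies its genome once per division. Before S phase the origin recognition complex (ORC1 to ORC6), CDC6 and CDT1 load the ring of MCM2 to MCM7 onto DNA, a step called licensing that geminin (GMNN) restrains. At the start of S phase the kinase CDC7 and cyclin E with CDK2 turn the ring into the active CMG helicase, which also holds CDC45 and the GINS proteins. DNA polymerase alpha with primase then lays down primers, polymerases delta and epsilon extend them, PCNA holds the polymerases on DNA as a sliding clamp, and replication factor C (RFC1 to RFC5) loads that clamp. RPA coats single-stranded DNA, FEN1 and LIG1 join Okazaki fragments, and ribonucleotide reductase, TYMS and TK1 supply deoxynucleotides. Many of these genes are textbook targets of E2F transcription factors, which switch on genes for S phase, and NF-Y binds CCAAT boxes in many promoters of proliferating cells.

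Promoters of 4 of the genes are printed to show letters that most of the set shares, though not every stretch holds all of them. PCNA was taken as the most abundant mRNA of the set and E2F1 as a gene higher after MA. POLA1 and CDC7 were taken as genes lower after MA. Higher and lower here mean an unadjusted p under 0.05 by edgeR, and no gene of the set had an adjusted p under 0.05 by it. Each stretch holds 150 bases of a RefSeq promoter (GRCh38.p14), the last before the start site that lie in no annotated exon. It is written 5′ to 3′ on the strand of the gene, with matches on either strand in capitals. PCNA and CDC7 had 2 listed starts each, and by rule the start whose printed stretch held the most matches was chosen. The letters searched were TTCCCGC and TTGGCGC, together called E2F-type, and CCAAT, and an E2F-type match GCGCCAA followed by T also holds CCAAT.
PCNA, chr20:5126627-5126776, minus strand: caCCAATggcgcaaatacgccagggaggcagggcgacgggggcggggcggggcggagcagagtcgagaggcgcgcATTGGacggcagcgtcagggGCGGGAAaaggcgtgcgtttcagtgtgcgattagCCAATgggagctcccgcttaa
E2F1, chr20:33686405-33686554, minus strand: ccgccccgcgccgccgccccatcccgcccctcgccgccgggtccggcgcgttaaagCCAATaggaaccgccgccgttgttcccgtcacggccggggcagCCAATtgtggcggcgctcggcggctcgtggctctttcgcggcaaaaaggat
POLA1, chrX:24693768-24693917, plus strand: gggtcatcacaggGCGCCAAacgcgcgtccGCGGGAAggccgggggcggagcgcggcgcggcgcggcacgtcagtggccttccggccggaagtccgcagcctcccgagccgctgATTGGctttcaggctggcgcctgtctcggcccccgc
CDC7, chr1:91500701-91500850, plus strand: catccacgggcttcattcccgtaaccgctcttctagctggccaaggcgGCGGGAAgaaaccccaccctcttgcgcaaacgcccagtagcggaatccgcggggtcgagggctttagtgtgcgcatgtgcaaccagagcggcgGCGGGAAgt
The PCNA stretch held 1 E2F-type match and 3 CCAAT matches. That of POLA1 held 2 E2F-type matches and 1 CCAAT match, and that of CDC7 held 2 E2F-type matches and 0 CCAAT matches. The E2F1 stretch held 2 CCAAT matches, and the E2F-type match of E2F1 lay closer to the start site than the bases shown.

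A promoter window, from 250 bases before to 50 after a start site, was found for 43 of the 51 genes. An E2F-type match stood in the windows of 29 of these 43 genes (67.4%), against 11.0% of the 27305 genes in the RefSeq table and 9.23% of its 35116 windows. CCAAT stood in the windows of 26 genes (60.5%), against 39.7% of all genes and 34.6% of all windows. The median log2 fold change was 0.01 over the 29 genes with an E2F-type match and 0.05 over the 14 without one. Of the genes past that unadjusted threshold, E2F-type matches were present both in the 3 lower after MA that had a window and in the 5 higher after MA. For CCAAT the medians were 0.05 over the 26 genes with it and 0.01 over the 17 without it. CCAAT stood in 1 of those 3 lower genes and in all 5 higher ones. These differences were not tested. A match describes letters and is not a measured binding site.

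All 51 genes had reads in every sample. For each gene the authors deposited FPKM, a level per length of the gene and per depth of the library, and an estimated read count. Counts per sample totalled 70275355, 65607669 and 59422939 for PANC-1 1, 2 and 3 and 56978375, 63984133 and 58181114 for the MA samples in the same order. These estimates exceed the reads that the study lists for each library. Mean levels over the 6 samples ran from 1.84 FPKM for CCNE2, a cyclin E, to 209 FPKM for PCNA. Added over the 51 genes, FPKM reached 1450.4, 1347 and 1457 in the PANC-1 samples and 1496, 1448 and 1413 in the MA samples, each in the order 1, 2 and 3 that all values per sample follow. The groups overlapped, with means of 1452 ± 41.4 after MA and 1418 ± 61.6 without it (SD, n = 3).

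**Figure D1:**
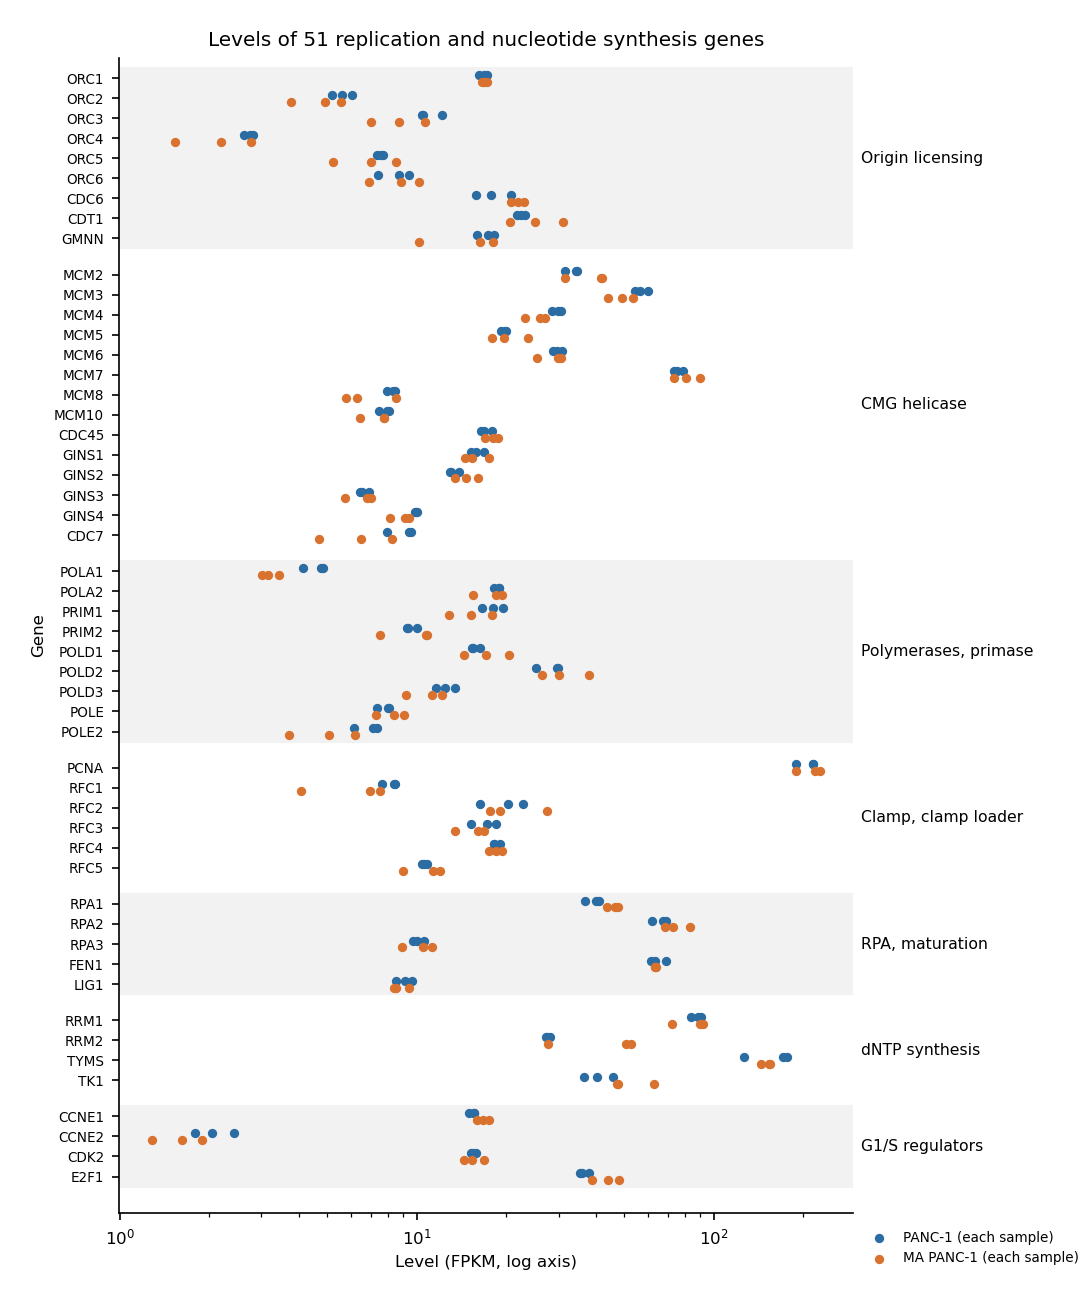
FPKM (log axis) of the 51 genes in each of the 6 samples, grouped by role, with PANC-1 in blue and MA PANC-1 in orange. Genes of one complex differed by many times in level, while the colours of most genes overlapped.

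Subunits of one complex were far from equal in mRNA level, on the FPKM scale. In PANC-1 cells the subunits of the MCM ring, which work in equal number, ran in the order MCM7 (75.8 ± 2.44 FPKM, SD, n = 3), MCM3 (56.8 ± 2.83), MCM2 (33.5 ± 1.68), MCM6 (29.7 ± 1.05), MCM4 (29.6 ± 1.02) and MCM5 (19.6 ± 0.404). MCM6 and MCM4 did not differ beyond their spread. In the origin recognition complex, ORC1 was at 16.7 ± 0.571 FPKM and ORC4 at 2.73 ± 0.0947 FPKM, with ORC3, ORC6, ORC5 and ORC2 between them in that order.

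Among the polymerases, the accessory subunit POLD2 led with 28.2 ± 2.64 FPKM (SD, n = 3). The catalytic subunit of polymerase alpha, POLA1, was lowest at 4.57 ± 0.391 FPKM, against 18.7 ± 0.408 FPKM for its partner POLA2. RFC1, the large subunit of the clamp loader, was at 8.15 ± 0.427 FPKM, below RFC5 (10.6 ± 0.205), and RFC3, RFC4 and RFC2 followed between 16.9 and 19.8 FPKM without differing beyond their spread. Of the ribonucleotide reductase subunits, RRM1 was at 87.6 ± 3.47 FPKM and RRM2, whose abundance limits the enzyme in S phase, at 27.6 ± 0.449 FPKM. Thymidylate synthase, TYMS, was at 158 ± 27.7 FPKM and thymidine kinase, TK1, at 40.8 ± 4.66 FPKM.

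The marker genes of the cells bear on the label. KRT8 (141 to 225 FPKM), KRT18 (278 to 338) and VIM (521 to 754) were high in all 6 samples, while KRT7 was at most 2.19 FPKM and CDH1 at most 1.28 FPKM. The epithelial markers KRT19 (at most 0.109 FPKM) and EPCAM (at most 0.132 FPKM) were near 0. Markers of leukocytes, endothelium and acinar cells were near 0 in each sample, and of the fibroblast markers COL3A1 (10.5 to 19.0 FPKM) and COL1A1 (2.64 to 5.96 FPKM) were present but PDGFRB and DCN were near 0.

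One library stood apart from the others before any comparison. MA PANC-1 2 had a mean GC content of the longest transcript of each gene, weighted by counts, of 51.2%, against 49.8% to 50.3% in the other samples. On the first principal component (26.4% of the variance) it lay at −73.5, with the other MA samples at −29.7 (1) and 15.9 (3) and untreated cells between 18.3 and 44.7. It was the lowest of the 6 samples in 27 of the 51 genes and the highest in 15. That makes 42 of 51 at one end, while the same library was at one end in 64.4% of the 11470 genes at a mean FPKM of 1 or more. Its part in the results below was not tested, and values without it are given for many of them.

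**Figure D2:**
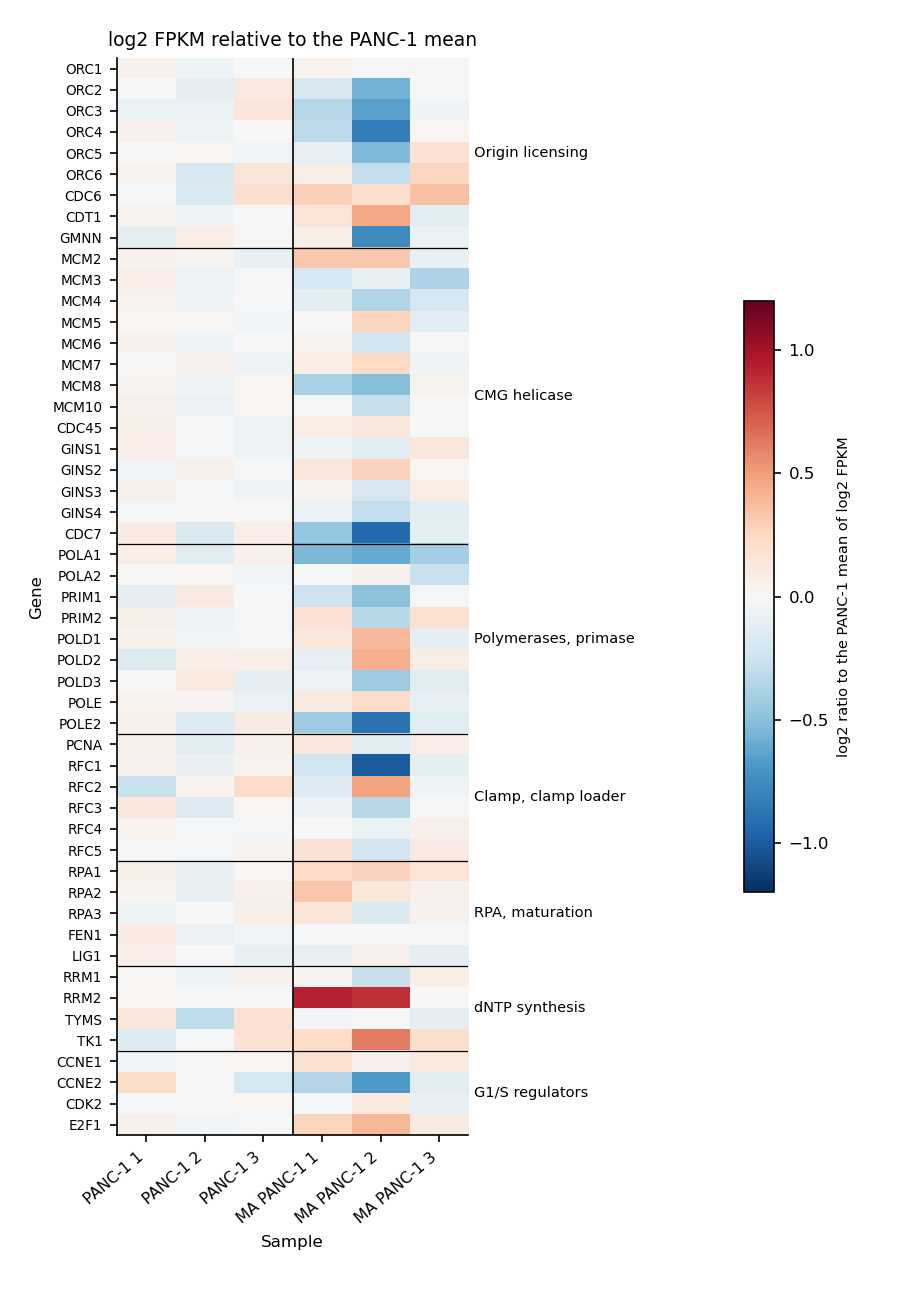
Log2 FPKM of each of the 51 genes (vertical, by role) in each of the 6 samples (horizontal), relative to the mean of the PANC-1 samples, with red above and blue below it. MA PANC-1 2 has the strongest colours, lowest in 27 genes and highest in 15, and the RRM2 row is dark red in MA PANC-1 1 and 2 alone.

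The comparison of MA treated PANC-1 with PANC-1 cells asked which genes respond to MA. Few of the replication genes differed between the groups, and by small amounts. The median log2 fold change over the 51 genes was 0.02, against −0.00 over the 17774 genes tested, and 28 values were positive and 23 negative. The largest positive value was 0.70 (RRM2) and the largest negative value −0.48 (POLA1). At an unadjusted p under 0.05 (edgeR's quasi-likelihood test) 5 genes were higher after MA, RRM2, TK1, E2F1, CDC6 and RPA1, and 4 were lower, POLA1, CDC7, POLE2 and MCM4. These 9 of 51 are 17.6%, beside a background of 11.2% of all genes tested (5.37% higher and 5.86% lower) and 13.2% of those at a mean FPKM of 1 or more. No gene of the set passed an adjusted p under 0.05 (Benjamini-Hochberg over all genes tested), where the background was 0.0394%. The smallest adjusted p of the set was 0.375, and by DESeq2 1 gene, POLA1, passed with an adjusted p of 0.0382 (background 1.48%), while limma on log2(FPKM + 0.1) passed 0. None was a DEG, that is a gene at or beyond a 2-fold change with an unadjusted p under 0.05, where the background was 1.92%.

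The samples of the 2 groups did not overlap in 10 genes (19.6%), 5 higher and 5 lower, which is close to the background of 19.9% (8.79% higher and 11.1% lower) and to the 22.6% of genes at a mean FPKM of 1 or more. In RNA from whole cultures, fewer cells in S phase and less mRNA per cell cannot be told apart. The 95% interval of the fold change stayed within a 2-fold change in either direction in 50 of the 51 genes, all but RRM2, against 62.5% of all genes tested and 85.9% of those at a mean FPKM of 1 or more. In 31 genes it stayed within 0.5 on the log2 scale. The standard errors of these log2 values had a median of 0.12 in the set, 0.15 in genes at a mean FPKM of 1 or more and 0.21 in all genes tested.

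**Figure D3:**
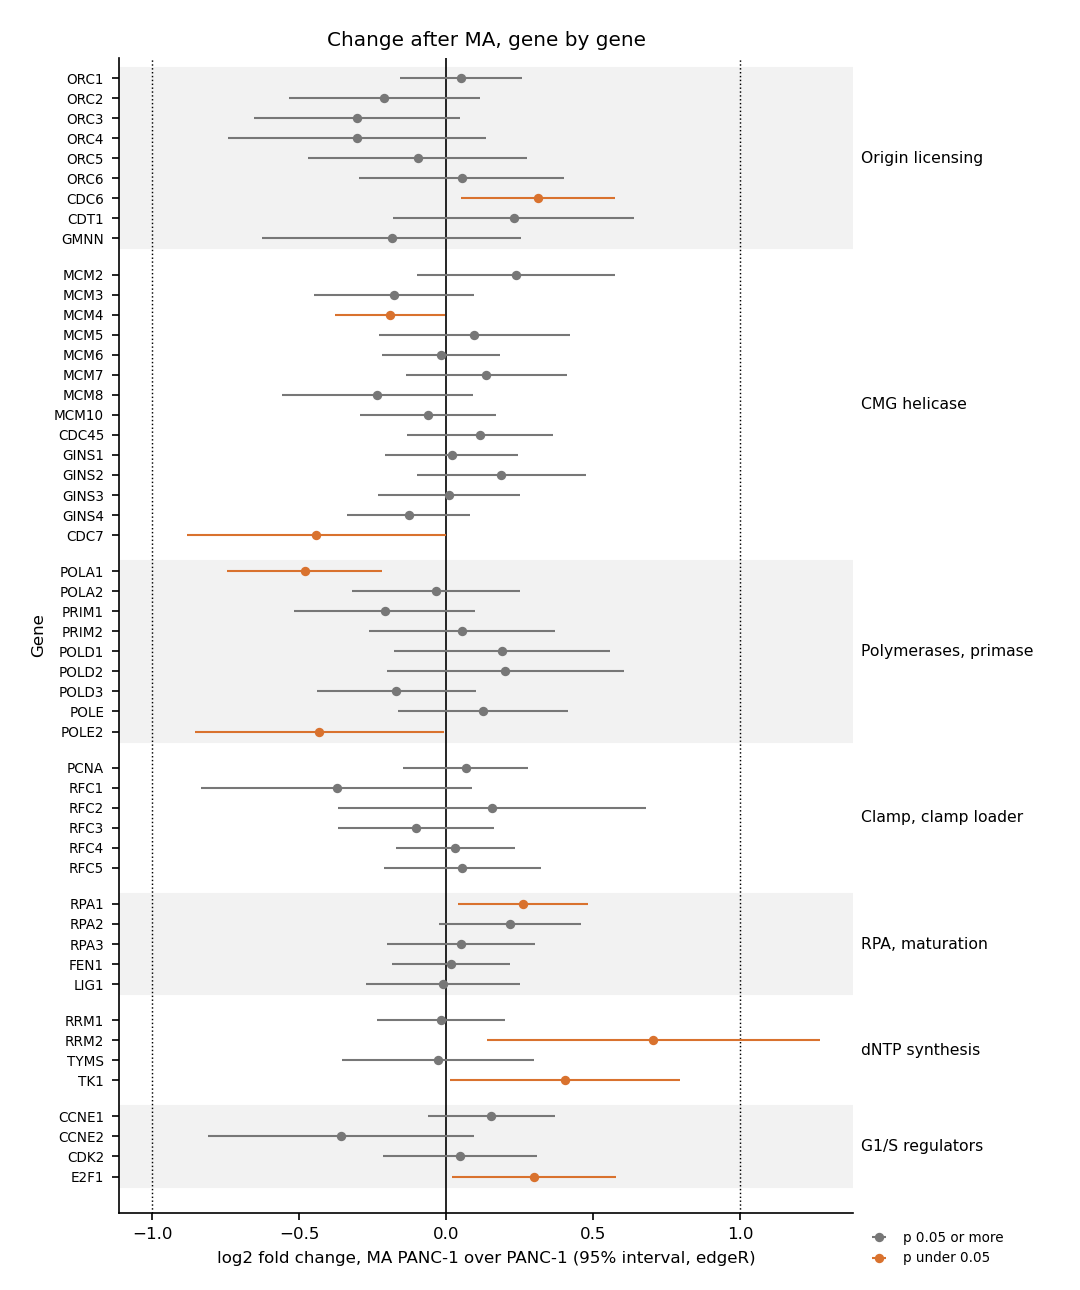
Log2 fold change of each of the 51 genes, MA PANC-1 over PANC-1, with its 95% interval from edgeR; orange marks an unadjusted p under 0.05 and the dotted lines a 2-fold change. The 9 orange points lie on both sides of 0, and RRM2 alone has an interval that crosses a dotted line.

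Deoxynucleotide synthesis had the highest median of the 7 role groups, 0.19 over 4 genes, with RRM2 and TK1 higher and RRM1 and TYMS close to their level in PANC-1. RRM2 (ENSG00000171848, GRCh38 chr2:10120698-10210597) was at 28.1, 27.4 and 27.3 FPKM in PANC-1 and at 52.4, 50.7 and 27.7 FPKM after MA. Its PANC-1 samples were nearly identical, MA PANC-1 1 and 2 stood far above them, and MA PANC-1 3 lay within their range. The log2 fold change was 0.70 (SE 0.24, 95% interval 0.14 to 1.27, edgeR adjusted p = 0.429). Without MA PANC-1 3 it was 0.96 (edgeR, adjusted p = 0.0407), and without MA PANC-1 2 it was 0.54, not past the unadjusted threshold. Its partner RRM1, the large subunit, was at 88.3, 83.8 and 90.7 FPKM in PANC-1 and at 89.4, 72.3 and 92.2 FPKM after MA, a log2 fold change of −0.02 (95% interval −0.24 to 0.20), or 0.05 without MA PANC-1 2. In MA PANC-1 1 and 2 both subunits stood closer in level than in the other 4 samples.

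TK1 (ENSG00000167900, chr17:78174091-78187233), which salvages thymidine, was at 36.4, 40.4 and 45.7 FPKM in PANC-1 and at 47.6, 62.6 and 47.0 FPKM after MA. All MA samples lay above all PANC-1 samples, MA PANC-1 2 by the most. The log2 fold change was 0.41 (SE 0.17, edgeR adjusted p = 0.441), and 0.21 without MA PANC-1 2, not past the unadjusted threshold. TYMS, which makes thymidylate, was at 171, 126 and 177 FPKM in PANC-1 and at 153, 155 and 144 FPKM after MA, a log2 fold change of −0.03 (95% interval −0.35 to 0.30). The spread between its PANC-1 samples was wider than that between the MA samples.

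Among the G1/S regulators (median 0.10 over 4 genes, or 0.05 without MA PANC-1 2), E2F1 was higher. E2F1 (ENSG00000101412, chr20:33675477-33686385), the activator whose promoter is shown above, was at 37.8, 35.5 and 35.9 FPKM in PANC-1 and at 43.9, 47.9 and 38.8 FPKM after MA. The groups did not overlap, and MA PANC-1 3 was nearest to the untreated cells. A log2 fold change of 0.30 was obtained (SE 0.12, edgeR adjusted p = 0.435), or 0.18 without MA PANC-1 2, not past the unadjusted threshold. The cyclins E had values of opposite sign, neither past the test. CCNE1 had a log2 fold change of 0.15 (95% interval −0.06 to 0.37) with no overlap between the groups, and the scarce CCNE2 one of −0.36 (−0.81 to 0.10) with overlap. Their partner CDK2 had a value of 0.05 (95% interval −0.22 to 0.31), or −0.06 without MA PANC-1 2.

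In origin licensing (median −0.10 over 9 genes, or 0.02 without MA PANC-1 2), CDC6 was the one gene past the unadjusted threshold. CDC6 (ENSG00000094804, chr17:40287879-40304657), the loader that brings the MCM ring to ORC, was at 17.8, 15.8 and 20.7 FPKM in PANC-1 and at 21.9, 20.8 and 23.0 FPKM after MA. The groups did not overlap, though PANC-1 3 and MA PANC-1 2 were nearly level. Its log2 fold change was 0.31 (SE 0.11, edgeR adjusted p = 0.429), and the same without MA PANC-1 2, at 0.31. CDT1, the other loader and the most abundant gene of this group, had a log2 fold change of 0.23 (95% interval −0.18 to 0.64), which was 0.02 without MA PANC-1 2. Its inhibitor GMNN had a value of −0.19, or −0.00 without that library. The 6 ORC genes lay between −0.30 (ORC3 and ORC4) and 0.05, and none passed the test. ORC3 was at −0.20 and ORC4 at −0.14 without MA PANC-1 2.

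**Figure D4:**
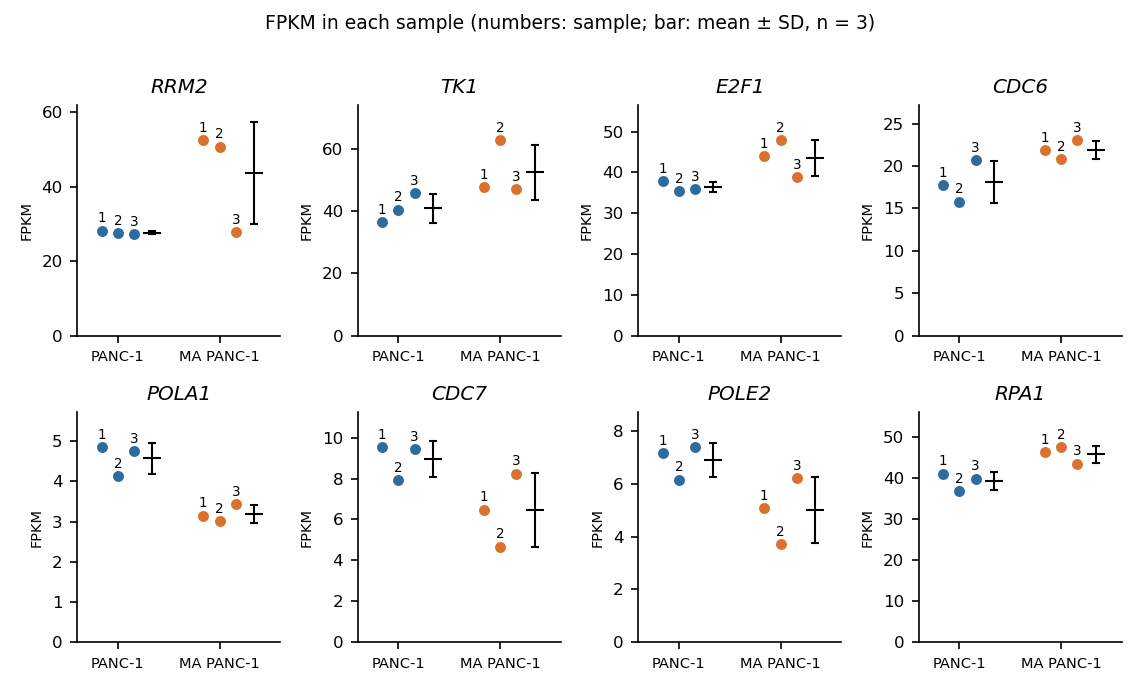
FPKM of 8 genes in each sample (points, numbered by sample), PANC-1 in blue and MA PANC-1 in orange, with the mean and SD of 3 samples as bars. RRM2 splits the MA samples, with MA PANC-1 3 at 27.7 FPKM beside the PANC-1 samples. The groups overlap in RRM2, CDC7 and POLE2 and do not overlap in TK1, E2F1, CDC6, POLA1 and RPA1.

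The CMG helicase and its activation (14 genes, median −0.00) held MCM4 and CDC7 on the lower side and none on the higher side. CDC7 (ENSG00000097046, chr1:91500851-91525764), the kinase that fires licensed origins, was at 9.53, 7.92 and 9.42 FPKM in PANC-1 and at 6.49, 4.67 and 8.24 FPKM after MA. MA PANC-1 3 lay within the PANC-1 range, so the groups overlapped. The log2 fold change was −0.44 (SE 0.19, edgeR adjusted p = 0.444), and −0.28 without MA PANC-1 2, not past the unadjusted threshold. DBF4, the activating subunit of CDC7 and not one of the 51 genes, had a value of −0.22, or −0.03 without MA PANC-1 2.

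MCM4 (ENSG00000104738, chr8:47960185-47978160) was at 30.6, 28.5 and 29.8 FPKM in PANC-1 and at 27.0, 23.1 and 26.0 FPKM after MA. All MA samples were below all PANC-1 samples by a small amount, a log2 fold change of −0.19 (SE 0.08, edgeR adjusted p = 0.441), or −0.16 without MA PANC-1 2. Values in the ring had both signs. MCM3 (−0.18) was lower without overlap, MCM6 was at −0.02, and MCM2 (0.24), MCM7 (0.14) and MCM5 (0.10) were positive, none of these 5 past the test. Without MA PANC-1 2, MCM3 was at −0.29 and past the unadjusted threshold, MCM2 was at 0.13, MCM7 at 0.02 and MCM6 at 0.03, and MCM5 turned to −0.07. Whether ring subunits differed in response was not tested. CDC45 had a log2 fold change of 0.11, and the 4 GINS genes lay between −0.13 and 0.19. MCM8 (−0.23) and MCM10 (−0.06), which are not part of the ring, did not pass the test. CDC45 was at 0.04 without MA PANC-1 2, and GINS2, the highest of the GINS genes with all samples, at 0.08.

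Among the replicative polymerases and primase (9 genes, median −0.03, or −0.10 without MA PANC-1 2), POLA1 and POLE2 were lower. POLA1 (ENSG00000101868, chrX:24693919-24996986) was at 4.85, 4.13 and 4.75 FPKM in PANC-1 and at 3.15, 3.01 and 3.44 FPKM after MA. All MA samples were below all PANC-1 samples, and the two-sided p of an exact permutation test was 0.1, the smallest that 3 against 3 samples can give. The log2 fold change was −0.48 (SE 0.11, 95% interval −0.74 to −0.22, edgeR adjusted p = 0.375), and the same without MA PANC-1 2, at −0.48. The other 3 subunits of the polymerase alpha complex were at −0.03 (POLA2), −0.21 (PRIM1) and 0.05 (PRIM2), each with an interval that holds 0. They were at −0.14, −0.13 and 0.17 without MA PANC-1 2, and PRIM2 was at 0.21 and past the unadjusted threshold with the GC trend removed. PRIM1 overlaps the abundant gene NACA on the same strand, which had 626% of its counts. Summed with its same-strand overlaps PRIM1 gave −0.26, not past the unadjusted threshold. Most counts of that sum were those of NACA, at −0.28 alone, so it says little about PRIM1. POLA2 overlaps AP000944 on the same strand, with 5.09% of its counts, and summed with it turned to 0.03.

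POLE2 (ENSG00000100479, chr14:49643555-49688422), the accessory subunit of polymerase epsilon, was at 7.14, 6.14 and 7.37 FPKM in PANC-1 and at 5.06, 3.71 and 6.22 FPKM after MA. MA PANC-1 3 was above PANC-1 2, so the groups overlapped. Its log2 fold change was −0.43 (SE 0.18, edgeR adjusted p = 0.441), or −0.29 without MA PANC-1 2, not past the unadjusted threshold. The catalytic subunit POLE was at 0.12, and the delta subunits POLD1, POLD2 and POLD3 at 0.19, 0.20 and −0.17, none past the test. Without MA PANC-1 2, POLE and POLD1 were at 0.01, POLD2 at −0.00 and POLD3 at −0.10.

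Of the clamp and its loader (6 genes, median 0.04, or −0.01 without MA PANC-1 2) none passed the test. PCNA was at 216, 189 and 215 FPKM in PANC-1 and at 227, 188 and 219 FPKM after MA, a log2 fold change of 0.07 (95% interval −0.15 to 0.28). The second sample of each group was its lowest. RFC1 was at 8.42, 7.66 and 8.37 FPKM in PANC-1 and at 6.94, 4.08 and 7.52 FPKM after MA, which did not overlap, with a log2 fold change of −0.37 (95% interval −0.83 to 0.09), or −0.17 without MA PANC-1 2. The small loader subunits RFC2 to RFC5 lay between −0.10 and 0.16, and RFC2, the highest of them, was at −0.11 without MA PANC-1 2.

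In single-strand binding and Okazaki fragment maturation (5 genes, median 0.05, or 0.10 without MA PANC-1 2), RPA1 was higher. RPA1 (ENSG00000132383, chr17:1829702-1900082), the large DNA-binding subunit of RPA, was at 41.1, 36.9 and 40.0 FPKM in PANC-1 and at 46.5, 47.6 and 43.6 FPKM after MA, without overlap. The log2 fold change was 0.26 (SE 0.09, edgeR adjusted p = 0.429), and 0.19 without MA PANC-1 2. RPA2 had a value of 0.22 (95% interval −0.03 to 0.46) and RPA3 one of 0.05. In 2 of 21 alternative settings RPA2 was past the unadjusted threshold, with the GC trend removed (0.22) and without MA PANC-1 3 (0.29). FEN1 (0.02) and LIG1 (−0.01), which trim and seal Okazaki fragments, had 95% intervals of −0.18 to 0.22 and −0.27 to 0.25, and without MA PANC-1 2 they were at −0.02 and −0.10. FEN1 overlaps FADS2 on the same strand, with 15.8% of its counts, and gave 0.07 summed with it.

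The 9 genes past the unadjusted threshold depended on which samples entered the fit. POLA1 stayed past it with each of the 6 samples left out in turn. It was the only one of the 9 to do so without PANC-1 2. Without MA PANC-1 1 it was joined by TK1, without MA PANC-1 2 by CDC6, MCM4 and RPA1, without PANC-1 1 by RPA1 and RRM2, and without PANC-1 3 by CDC6 and TK1. Without MA PANC-1 3, 7 of the 9 stayed, all but CDC6 and MCM4. In that fit 8 genes of the set were lower and 8 higher, beside a background of 9.69% lower and 8.39% higher over all genes tested in it. Without MA PANC-1 2 the counts were 3 lower and 2 higher, beside 5.81% and 4.51%.

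Changes in the set lined up with base composition. Across the 51 genes, the log2 fold change and the GC content of the gene's longest annotated transcript had a Pearson's r of 0.61 and a Spearman's rho of 0.70. This is a description over genes that share the same 6 libraries, and the same was not computed over all genes tested. Genes lower after MA had a median GC content of 43.3% (39.1% to 48.5%, n = 4), genes higher after MA 48.2% (45.5% to 62.8%, n = 5), and all 51 genes 45.9%. Without MA PANC-1 2, the library with the highest mean GC content, r was 0.25 and rho 0.28. After removal of the GC trend within each library, r was 0.14 and rho 0.16, which the correction lowers by its construction. Of the 9 genes, CDC7 then had a log2 fold change of −0.23, POLA1 −0.36, POLE2 −0.34 and MCM4 −0.20. On the other side E2F1 was at 0.16, TK1 and RPA1 at 0.26, CDC6 at 0.37 and RRM2 at 0.76, and among the rest CCNE2 was at −0.08 and CDT1 at 0.07.

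**Figure D5:**
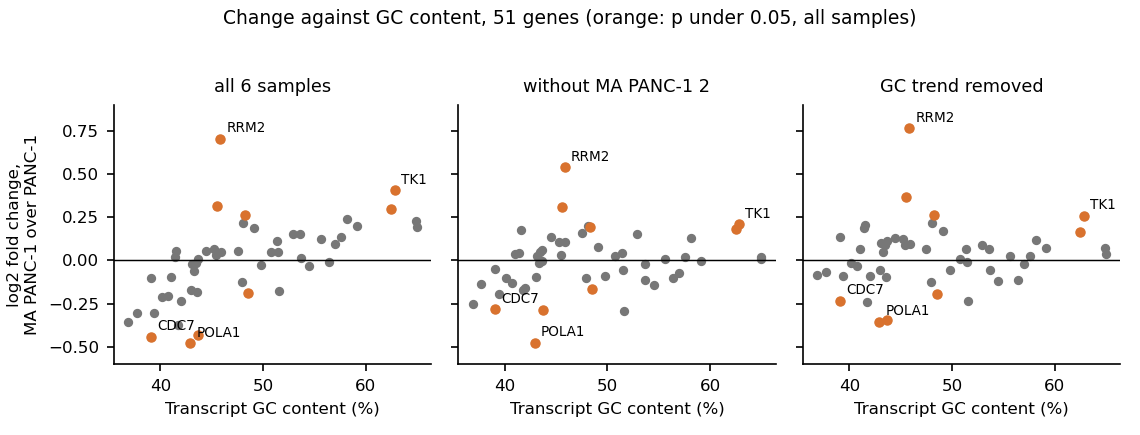
Log2 fold change (vertical) against the GC content of the longest transcript in percent (horizontal) for the 51 genes, with all 6 samples, without MA PANC-1 2, and after removal of the GC trend. Orange marks the 9 genes with an unadjusted p under 0.05 in all samples, and the slope seen with all samples (r = 0.61) is flatter without MA PANC-1 2 (r = 0.25).

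Among 63 other genes of the same pathways, 6 (9.52%) were past the unadjusted threshold, 3 higher and 3 lower, which is near the background of 11.2% of all genes tested and 13.2% of those at a mean FPKM of 1 or more. Their number was 15 without MA PANC-1 3, beside 9.69% lower and 8.39% higher of all genes tested in that fit. With any other sample left out it was 3 to 5, beside 3.49% to 5.81% lower and 3.1% to 4.51% higher. Of 23 further enzymes of nucleotide synthesis (median log2 fold change 0.03, or −0.00 without MA PANC-1 2), 2 were higher at an unadjusted p under 0.05, DCTD and IMPDH1, and 1 was lower, PPAT. DCTD, which feeds dUMP to TYMS, was at 13.1, 9.15 and 9.38 FPKM in PANC-1 and at 13.5, 13.4 and 13.9 FPKM after MA. The groups did not overlap, though PANC-1 1 was nearly level with the MA samples, and the log2 fold change was 0.40 (SE 0.15, edgeR adjusted p = 0.432). With the GC trend removed it was 0.34, not past the unadjusted threshold. IMPDH1, an enzyme of guanine nucleotide synthesis, had a value of 0.29 (SE 0.12, edgeR adjusted p = 0.444), or 0.15 with the GC trend removed. PPAT, the first enzyme of purine synthesis, was at 6.44, 5.18 and 5.71 FPKM in PANC-1 and at 4.47, 3.46 and 5.11 FPKM after MA. Its groups did not overlap either, with a log2 fold change of −0.38 (SE 0.15, edgeR adjusted p = 0.435), which was −0.02 with the GC trend removed. Without MA PANC-1 2 none of these 3 enzymes was past the unadjusted threshold.

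Of 22 further replication factors (median 0.01), 1 was past the unadjusted threshold. POLE4, a small subunit of polymerase epsilon, was at 19.8, 23.5 and 20.8 FPKM in PANC-1 and at 28.7, 31.9 and 27.4 FPKM after MA. The groups did not overlap, with a log2 fold change of 0.50 (SE 0.13, edgeR adjusted p = 0.388), or 0.39 without MA PANC-1 2. So 2 accessory subunits of polymerase epsilon, POLE4 and POLE2, lay on opposite sides of 0, a difference that was not itself tested.

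Of 18 further genes of G1/S control (median −0.02, or 0.02 without MA PANC-1 2), CDK6 and RB1 were lower and none higher. CDK6, the kinase that pairs with D cyclins, was at 2.55, 2.69 and 3.00 FPKM in PANC-1 and at 1.84, 1.53 and 2.10 FPKM after MA, a log2 fold change of −0.56 (SE 0.13, edgeR adjusted p = 0.375). RB1, which holds E2F factors in check, was at 6.89, 5.86 and 7.24 FPKM in PANC-1 and at 4.72, 3.15 and 5.32 FPKM after MA, a log2 fold change of −0.57 (SE 0.18, edgeR adjusted p = 0.408). The groups overlapped in neither gene. Their longest transcripts had GC contents of 39.5% and 37.3%, and with the GC trend removed their values were −0.34 and −0.31. None of these further genes passed an adjusted p under 0.05 by edgeR, and by DESeq2 CDK6 alone did (adjusted p = 0.0281).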

How the data were processed

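RNA of 6 PANC-1 samples was sequenced as poly(A) libraries that keep the strand, and the groups follow the treatment in the labels. For each gene the authors deposited FPKM values and estimated counts per sample, the first normalized by length and depth and the second not normalized. The submitters' processing notes name cutadapt 1.9, HISAT2 2.0.4 and StringTie 1.3.4d, without their settings, and the genome build and whether counting used strand are not given in the sources used here. Gene positions equal those of GENCODE on GRCh38 in 47519 of 58552 matched genes.

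The 17774 genes whose FPKM averaged 0.1 or more were tested with edgeR 4.0.16 (quasi-likelihood, TMM, group only) under R 4.3.3, adjusted by Benjamini-Hochberg over all of them. The standard error is the absolute log2 fold change divided by the square root of F. GC content was taken from the longest GENCODE transcript of each gene, which need not be the one expressed. The GC trend of each library was removed with a smooth curve (span 0.5) over genes averaging 100 or more counts. Alternatives used DESeq2 1.42.0 and limma 3.58.1. The members, the lists and the search letters were chosen with earlier results of these data known. Named are members with an unadjusted p under 0.05, the most abundant and most changed member of each role group, and up to 3 genes of each further list with an unadjusted p under 0.05; 1 further gene is not reported here, and values of other genes were added after they were seen to account for every group. Counts are estimates and exceed in every library the reads that the study lists, so the spread between samples, with a common biological coefficient of variation of 0.308, sets the precision.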

Additional observations from a re-analysis of the deposited data

How the results depend on the processing

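Of 21 alternative settings, 15 kept all 6 samples. In these the set had 2 to 5 genes lower and 5 to 7 higher at an unadjusted p under 0.05. Over all genes tested the shares were 4.34% to 6.96% lower and 3.44% to 8.01% higher. The median log2 fold change of the set ran from −0.02 to 0.05, and 7 to 9 of the 9 genes past the threshold kept their call. With total counts only, without TMM factors, 2 genes were lower, beside 6.07% of all genes tested, whose median was then −0.04. DESeq2 gave 1 gene of the set with an adjusted p under 0.05, POLA1, and among the further genes CDK6. With each sample left out in turn the genes lower numbered 1 to 8, the genes higher 0 to 8 (3.49% to 9.69% and 3.10% to 8.39% of all genes tested), those with an adjusted p under 0.05 from 0 to 1 (RRM2 without MA PANC-1 3), DEGs 0, and the median ran from −0.01 to 0.03. Of the 51 genes of the set, 0 to 8 had the opposite sign in a setting with all 6 samples and 2 to 8 with a sample left out. The 8 were ORC5, MCM5, MCM6, FEN1, RRM1 and CDK2 both with the GC trend removed and without MA PANC-1 2, joined by MCM10 and RFC3 in the former and by POLD2 and RFC2 in the latter. Of the 23 genes named by rule, 21 kept their sign in every setting. POLD2 ran from −0.0050 (without MA PANC-1 2) to 0.33 with a sample left out. TYMS ran from −0.17 to 0.056 and was at 0.02 without MA PANC-1 3, 0.03 without PANC-1 1 and 0.056 without PANC-1 3, with the cause not tested. Summing overlapping genes and summing pseudogenes were chosen after seeing the data.

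The samples share replicate numbers, but nothing says what a number stands for. Deviations from the group mean correlated at 0.03, 0.05 and 0.07 between samples of the same number, and each sample correlated best with its own number, a hint from the data and not from the design. With the replicate number as a block, 5 genes of the set were lower and 5 higher, beside 6.96% and 5.5% of all genes tested. The median log2 fold change of the set was 0.02, and no gene had an adjusted p under 0.05. MCM4 lost its unadjusted call, and ORC3 and RFC1 (−0.41) gained one. Of the 63 further genes, 9 were past the unadjusted threshold, against 6 without the block. Over all genes tested, the block gave 0 genes with an adjusted p under 0.05 against 7 without it, and 2215 against 1995 with an unadjusted p under 0.05. With the block and the GC trend removed together, 4 genes were lower and 6 higher, beside 5.66% and 7.05% of all genes tested. The median was 0.05, against 0.02 over all genes tested.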
